A study of Mus musculus with 15 samples.

Results

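The genes of mouse chromosome 12 were examined as a block, because their median level stood below that of the other autosomes in some of the choroid plexus carcinomas. A gene counted as a member when RefSeq (GRCm38) placed it on chromosome 12, when it had a probe set with exactly 1 gene symbol, and when that probe set exceeded the median of its array in 5 or more of 15 arrays. Of 22180 genes tested, 748 lay on chromosome 12, and 502 of these passed the filter and are the members, out of 13734 autosomal genes that passed it. Among the members, 454 were protein-coding, 23 were long noncoding RNAs and 14 were microRNA genes. The chromosome was picked for the difference between carcinoma and normal arrays, so every value of that contrast, and of carcinoma against papilloma, which uses the same carcinoma arrays, is a description without a test. The label of a chromosome shifted down in carcinomas held in some carcinoma arrays and not in others, as the values by array show: carcinoma 4 did not show the shift and carcinoma 5 showed a small one.

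The choroid plexus is a secretory epithelium within the ventricles of the brain that produces cerebrospinal fluid, and its cells carry tufts of cilia. Tumours often gain or lose whole chromosomes or arms, and RNA levels of the genes on a gained or lost chromosome tend to follow its copy number, gene by gene and incompletely. Expression arrays measure RNA and not DNA, and no copy number was measured here. Chromosome 12 of the mouse holds, among many others, the Myc partner gene Max, the oxygen-sensing genes Hif1a and Egln3, the ribonucleotide reductase gene Rrm2 and the imprinted Dlk1-Dio3 cluster.

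Total RNA from snap-frozen tissue was profiled on 15 single-channel arrays, 5 from normal choroid plexus, 5 from choroid plexus papilloma and 5 from choroid plexus carcinoma, which the series description gives as coming from different mice. All mice had a mixed C57Bl/6 and 129 background and carried Myc/Myc; no age was stated in the labels. The normal mice were Myc/Myc; p53fl/fl without Cre, the papilloma mice were Atoh1-Cre; Myc/Myc, and the carcinoma mice were Atoh1-Cre; Myc/Myc; p53fl/fl. The normal group thus carried the unrecombined p53fl/fl alleles, the papillomas did not carry them, and the Cre was driven by the Atoh1 promoter in both tumour groups. Tumour type and p53 genotype therefore cannot be told apart, and tumours were collected when mice became ill.

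The values were log2 intensities after RMA (robust multi-array average, which subtracts background, equalises the arrays and summarises each probe set), with array medians between 6.79 and 6.90 and array maxima between 14.48 and 14.58. Ttr, the transthyretin that defines choroid plexus epithelium, lay between 14.42 and 14.58 in all 15 arrays, close to these maxima. It stood at 14.55 to 14.58 in normal and at 14.42 to 14.51 in tumour arrays. So close to the maxima, the size of a difference in Ttr cannot be read. The mean of the 10 measured choroid plexus markers of 13 listed was 13.11 to 13.19 in normal, 12.63 to 12.91 in papilloma and 12.44 to 12.83 in carcinoma arrays, with 0 of the 10 under the array median throughout any group. Myc lay between 7.52 and 7.72 in normal arrays and between 8.07 and 8.97 in the tumour arrays, while Trp53 was not analysed here. Normal arrays 2 to 5 held both Xist (10.69 to 12.48) and the Y-linked transcripts Uty, Kdm5d and Eif2s3y (mean 7.72 to 9.74), whereas each tumour array held only one of these signals; the labels do not say whether tissue of several mice was combined. A neuron marker list (11 of 11 measured) stood at 9.52 in papilloma 2 and 8.73 in papilloma 4, against 7.43 to 7.69 in the other papillomas and 8.35 to 8.86 in normal arrays.

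The promoters of 5 members on which the account turns are printed here from the RefSeq promoter table (GRCm38.p6), each from 250 bases before to 50 bases after the gene start and written along the gene's strand. They were chosen as a typical member of the carcinoma shift (Ttc7b), a Myc partner (Max), the oxygen-sensing pair (Hif1a and Egln3) and a member with opposite differences in the tumour types (Dglucy). Capitals mark ACGTG, the core of the site that HIF proteins bind, and CACGTG, the E-box bound by Myc with Max, which holds ACGTG within it.
Ttc7b (chr12:100520788-100521087, minus strand): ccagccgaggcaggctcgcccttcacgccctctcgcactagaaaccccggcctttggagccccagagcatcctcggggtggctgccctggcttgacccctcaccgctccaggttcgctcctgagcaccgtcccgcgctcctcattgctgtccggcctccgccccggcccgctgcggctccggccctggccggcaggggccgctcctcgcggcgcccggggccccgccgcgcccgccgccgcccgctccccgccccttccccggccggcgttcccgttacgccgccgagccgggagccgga
Max (chr12:76962199-76962498, minus strand): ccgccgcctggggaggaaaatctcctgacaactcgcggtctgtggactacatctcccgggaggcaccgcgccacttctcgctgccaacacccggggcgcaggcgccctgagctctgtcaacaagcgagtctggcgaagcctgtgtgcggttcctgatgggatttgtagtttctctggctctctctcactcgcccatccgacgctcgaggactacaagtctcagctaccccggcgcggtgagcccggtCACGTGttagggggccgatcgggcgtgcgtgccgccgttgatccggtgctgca
Hif1a (chr12:73907617-73907916, plus strand): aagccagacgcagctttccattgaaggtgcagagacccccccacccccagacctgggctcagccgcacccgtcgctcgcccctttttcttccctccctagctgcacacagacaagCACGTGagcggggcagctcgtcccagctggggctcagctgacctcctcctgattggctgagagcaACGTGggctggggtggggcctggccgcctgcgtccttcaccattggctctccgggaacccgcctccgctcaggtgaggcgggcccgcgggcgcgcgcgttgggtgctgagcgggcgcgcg
Egln3 (chr12:54203825-54204124, minus strand): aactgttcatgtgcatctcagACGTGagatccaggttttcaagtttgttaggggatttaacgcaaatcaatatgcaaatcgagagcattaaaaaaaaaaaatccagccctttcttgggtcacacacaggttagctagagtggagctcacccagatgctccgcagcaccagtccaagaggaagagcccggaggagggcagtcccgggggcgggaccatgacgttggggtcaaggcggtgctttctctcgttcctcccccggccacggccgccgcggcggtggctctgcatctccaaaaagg
Dglucy (chr12:100778807-100779106, plus strand): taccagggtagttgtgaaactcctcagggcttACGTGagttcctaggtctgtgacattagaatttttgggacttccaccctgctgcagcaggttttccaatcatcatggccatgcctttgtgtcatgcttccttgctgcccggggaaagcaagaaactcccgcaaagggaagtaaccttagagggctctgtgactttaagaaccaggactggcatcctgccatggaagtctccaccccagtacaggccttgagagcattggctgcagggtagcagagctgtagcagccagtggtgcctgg

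Searched on both strands, CACGTG occurred once in the windows of Max and of Hif1a, ACGTG outside an E-box occurred once in those of Hif1a, Egln3 and Dglucy, and the Ttc7b window held neither. Among members with a promoter in the table, 43 of 430 held CACGTG (10%), against 9.84% of the 11174 such promoters of genes past the filter on any chromosome and 8.2% of all 16918 promoters of genes tested. ACGTG stood in 103 of the 430 (24.0%), against 25.0% and 21.3% in the same sets, and the median number of CpG dinucleotides per window was 21, against 20 and 13. The members' windows were thus close to those of other genes past the filter in these 3 features. A match in these letters is a description and not a bound site.

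Among the microRNAs of the Dlk1-Dio3 cluster, 4 are shown because they differed between papilloma and normal arrays, with mature 3p sequences from RefSeq and the seed, bases 2 to 8, in capitals.
miR-376a-3p: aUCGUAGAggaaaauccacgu
miR-300-3p: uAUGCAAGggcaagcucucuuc
miR-665-3p: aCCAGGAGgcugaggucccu
miR-341-3p: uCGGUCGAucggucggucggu
The 4 seeds differ, so these microRNAs form no seed family; the array probes report the gene and not which arm is made.

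For each member and array, the log2 difference from the normal mean was taken and the array's median over all autosomal genes past the filter was subtracted. The median over the 502 members was -0.21 in carcinoma 1, -0.28 in carcinoma 2, -0.35 in carcinoma 3, -0.01 in carcinoma 4 and -0.09 in carcinoma 5 (mean -0.19 ± 0.14, SD, n = 5; -0.12 with no filter on low values). On the linear scale these medians correspond to 86.6%, 82.5%, 78.5%, 99.4% and 94.2% of the normal mean. Papilloma arrays stood at -0.05, -0.01, -0.04, -0.02 and -0.02 (mean -0.03 ± 0.02, SD, n = 5), and normal arrays lay between -0.02 and 0.01. With the filter, carcinomas 1, 2, 3 and 5 were below every papilloma and normal array, whereas carcinoma 4 lay within the range of the papilloma and normal arrays. With no filter, carcinomas 1, 2 and 3 stood at -0.14, -0.15 and -0.24 and carcinomas 4 and 5 at -0.03 and -0.04, within the papilloma range of -0.05 to -0.01.

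**Figure D1:**
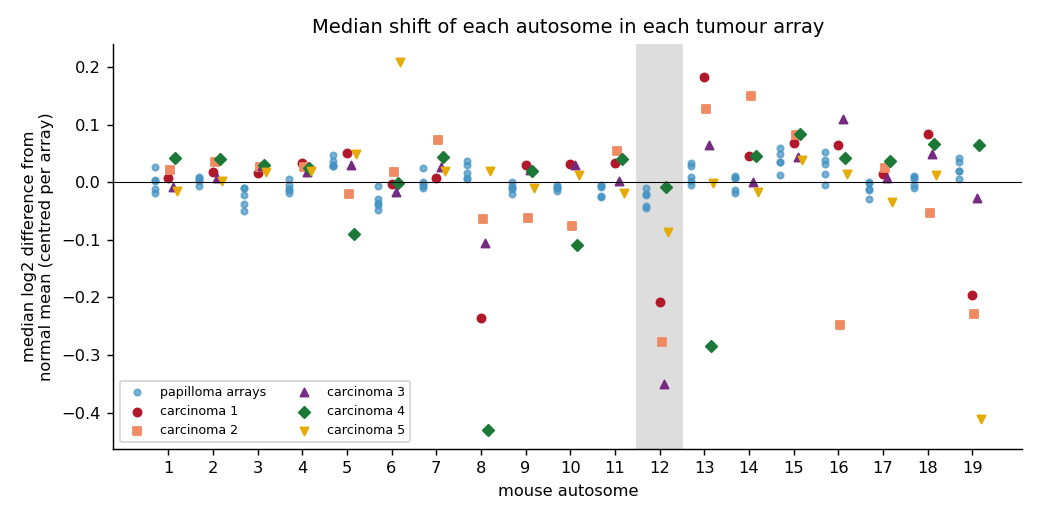
Median centred log2 difference from the normal mean (y axis) for the genes of each autosome (x axis), with papilloma arrays as blue points, carcinoma arrays as 5 coloured symbols and chromosome 12 shaded. Chromosome 12 was the lowest autosome in carcinomas 2 and 3, while chromosome 8 was lowest in carcinomas 1 and 4 and chromosome 19 in carcinoma 5.

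Chromosome 12 was the lowest of 19 autosomes in carcinomas 2 and 3 and the second lowest in carcinomas 1 and 5. In carcinoma 1 the lowest was chromosome 8 at -0.24, in carcinoma 4 chromosome 8 at -0.43, and in carcinoma 5 chromosome 19 at -0.41. Carcinoma 4, in which chromosome 12 ranked 5 from the lowest, was thus the array with the lowest median of chromosome 8. Over the 5 carcinomas the means of chromosome 8 (-0.16 ± 0.18, SD) and chromosome 19 (-0.16 ± 0.19, SD) lay within 1 SD of that of chromosome 12.

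The shift lay in the middle of the distribution and not in a few genes. The share of members below 0 was 70.1% in carcinoma 1, 71.3% in carcinoma 2, 77.7% in carcinoma 3, 50.6% in carcinoma 4 and 57.0% in carcinoma 5, whereas the genes of the other autosomes stood between 48.9% and 50.0% in the same arrays. In papilloma arrays the members' share was 51.8% to 54.8%. The interquartile range of the members, 0.63 to 0.88 in carcinomas, was close to the 0.64 to 0.77 of the other autosomal genes, so the members spread around their centre about as widely as other genes did.

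**Figure D2:**
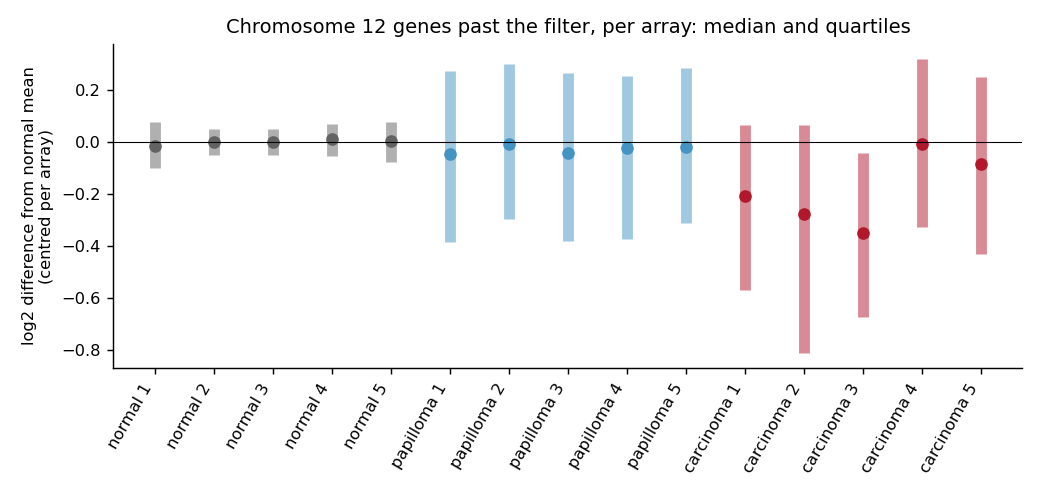
Median (point) and 25% to 75% range (bar) of the 502 chromosome 12 genes in each array, as centred log2 difference from the normal mean. The medians of carcinomas 1, 2 and 3 lie between -0.21 and -0.35, and the upper end of the bar of carcinoma 3 lies below 0.

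Counted gene by gene, 60.4%, 61.2% and 67.7% of members were below every normal array in carcinomas 1, 2 and 3, 37.6% in carcinoma 4 and 46.4% in carcinoma 5. Genes of the other autosomes stood between 36.8% and 39.4% in these arrays, and papilloma arrays held 39.0% to 42.8% of members below every normal array. All 5 carcinomas were below every normal array for 142 members (28.3%, against 21.1% of autosomal genes past the filter), and none was for 112 members (22.3% against 40.7%). Most members were thus below every normal array in at least 1 carcinoma. The same held for most autosomal genes past the filter, in a smaller share.

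Members whose values ran closest to the chromosome median across the 15 arrays were chosen by that likeness, the sum of absolute deviations from the median of each array. They were Exd2, which encodes an exonuclease, Ttc7b, a scaffold of a phosphatidylinositol 4-kinase, Zfyve1, a lipid-binding FYVE protein, Ywhaq, a 14-3-3 protein, Zc3h14, a poly(A)-binding zinc finger protein, and Srsf5, a splicing factor. Ttc7b stood at 10.48, 10.42, 10.53, 10.42 and 10.48 in normal arrays, 10.51, 10.69, 10.61, 10.51 and 10.43 in papillomas, and 10.24, 10.15, 10.08, 10.42 and 10.38 in carcinomas. Carcinomas 1, 2 and 3 were below all normal arrays, carcinoma 4 lay at the lower edge of the normal range and carcinoma 5 just under it. The difference between carcinoma and normal means was -0.21 ± 0.08 (SE).

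Exd2 lay between 9.86 and 10.01 in carcinomas 1, 2, 3 and 5, below every normal array (10.18 to 10.24) and papilloma array (10.16 to 10.31), and at 10.19 in carcinoma 4. Zfyve1 was at 9.91, 9.89, 9.74, 10.06 and 10.15 in carcinomas and at 10.12 to 10.20 in normal arrays, so that carcinoma 5 was within the normal range. The carcinoma means differed from normal by -0.22 ± 0.06 in Exd2 and -0.22 ± 0.08 (SE) in Zfyve1. The papilloma difference of all 6 genes was between -0.14 and 0.08. Likeness to the chromosome median in all 15 arrays chose these genes, so their papilloma and carcinoma values are a description.

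Along the chromosome, members were split by gene order into 8 segments of 62 or 63 genes, from Rab10os to Macc1. In carcinoma 1 all 8 segment medians were below 0, from -0.36 to -0.14. Carcinoma 2 ranged from -0.58 to -0.14 and carcinoma 3 from -0.49 to -0.20, again with 8 of 8 segments below 0. In carcinoma 4 the range was -0.12 to 0.10 with 3 of 8 below 0, and in carcinoma 5 it was -0.17 to 0.02 with 7 of 8 below 0. The lower level in carcinomas 1, 2 and 3 therefore ran from the first to the last segment.

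**Figure D3:**
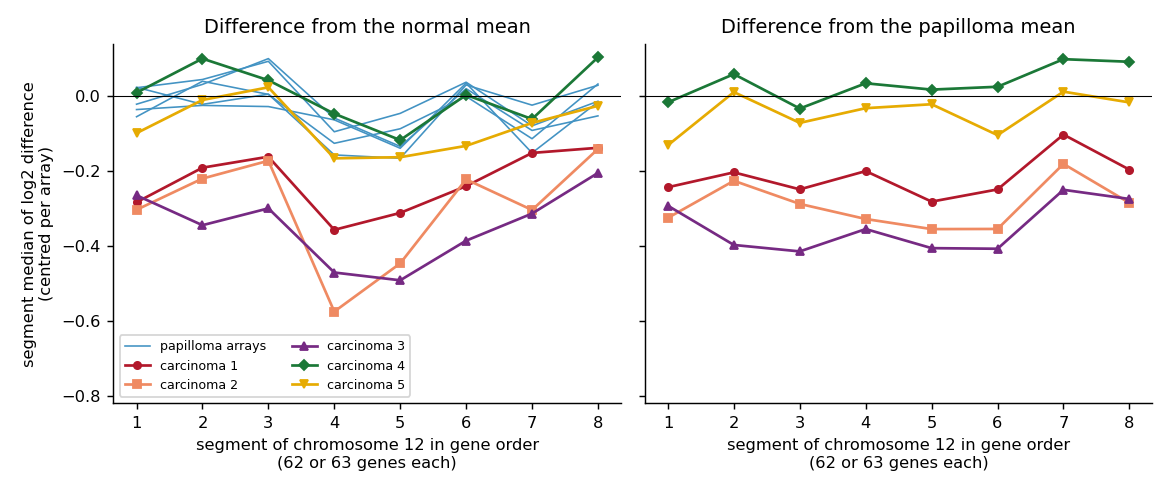
Median centred log2 difference of 8 successive segments of chromosome 12 (x axis, gene order) from the normal mean (left) and from the papilloma mean (right) for each carcinoma array, with papilloma arrays as blue lines on the left. Carcinomas 1, 2 and 3 lie below 0 in every segment in both panels. Segments 4, 5 and 7 dip in the papillomas as well.

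The deepest segments, the fourth (Arid4a to Exd2, holding Hif1a and Max) and the fifth (Galnt16 to Ift43, holding Fos and Tgfb3), were also the lowest in papillomas, with means of -0.10 ± 0.04 and -0.11 ± 0.05 (SD, n = 5). Segment 7 was nearly as low in papillomas (mean -0.09 ± 0.05, SD), whereas its carcinoma mean was -0.18 ± 0.12 (SD). Against the papilloma mean the carcinoma profile was flatter. There the segments of carcinoma 1 lay between -0.28 and -0.10, those of carcinoma 2 between -0.35 and -0.18, and those of carcinoma 3 between -0.41 and -0.25. Carcinoma 4 lay between -0.03 and 0.10 and carcinoma 5 between -0.13 and 0.01 on this scale. The papilloma mean shares none of the normal arrays, but both references were set against the same carcinoma arrays.

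In carcinomas 1, 2 and 3 the shift was smaller in dim genes. In the 167 members with the lowest mean level (6.33 to 8.03) the medians of carcinomas 1 to 5 were -0.13, -0.09, -0.19, -0.02 and -0.11. In the 168 brightest (9.91 to 13.69) they were -0.23, -0.45, -0.42, 0.01 and -0.02. The 167 members between these levels stood at -0.33, -0.47, -0.42, -0.03 and -0.15, so the shift did not grow steadily with level. Members with little difference between papilloma and normal (167 genes, under 0.16 in size) had medians of -0.19, -0.18, -0.26, 0.01 and -0.06. In carcinomas 1, 2 and 3 the lower level was thus also present among genes that differed little between papilloma and normal arrays. Members with the largest papilloma difference (168 genes, 0.45 or more in size) had medians of -0.56, -0.71, -0.61, -0.31 and -0.29 in carcinomas 1 to 5. Papilloma arrays stood at -0.50 to -0.39 in these genes, which were chosen by the size of their papilloma difference. Carcinoma 4 was low there as well. The same split was not made for other autosomes, so nothing particular to chromosome 12 is read from it.

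Papillomas, which did not enter the choice of the chromosome, were tested gene by gene against normal arrays with limma and Benjamini-Hochberg adjustment over all 22180 genes at 0.05. Of 748 chromosome 12 genes, 121 rose (16.2%, against 17.0% of all genes tested) and 141 fell (18.9%, against 16.3%). Among the 502 members, 112 rose and 114 fell, 22.3% and 22.7%, where 24.6% and 22.5% of all genes past the filter did. These shares were near the background, and the median log2 difference of the 748 genes was -0.01, against 0.01 over all genes tested. The 502 members include 4 that passed the filter through the normal arrays alone, and the differences of these 4 are a description.

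Carcinoma minus normal, which shares the normal arrays with the papilloma contrast, passed the same threshold upward for 84 of the 748 genes (11.2%, against 18.7% of all genes tested) and downward for 215 (28.7%, against 19.2%). Carcinoma minus papilloma passed it upward for 17 (2.27%, against 6.24%) and downward for 106 (14.2%, against 5.17%). That last count depended on the arrays used. It was 49 when only carcinoma and papilloma arrays were fitted and 62 without papillomas 2 and 4, the papillomas with the highest neuron markers. It was 67 without papilloma 3, 68 without papilloma 5 and 70 without carcinoma 2. The upward count was 10 and 9 in the first 2 of these settings. In other settings the downward count was larger, at 151 without carcinoma 4, 144 with array weights and 120 without carcinoma 5. The medians over the 748 genes were -0.13 and -0.12 in these contrasts, against -0.02 and -0.03 over all genes tested. Since both contrasts hold the carcinoma arrays by which the chromosome was picked, nothing more is read from these counts.

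**Figure D4:**
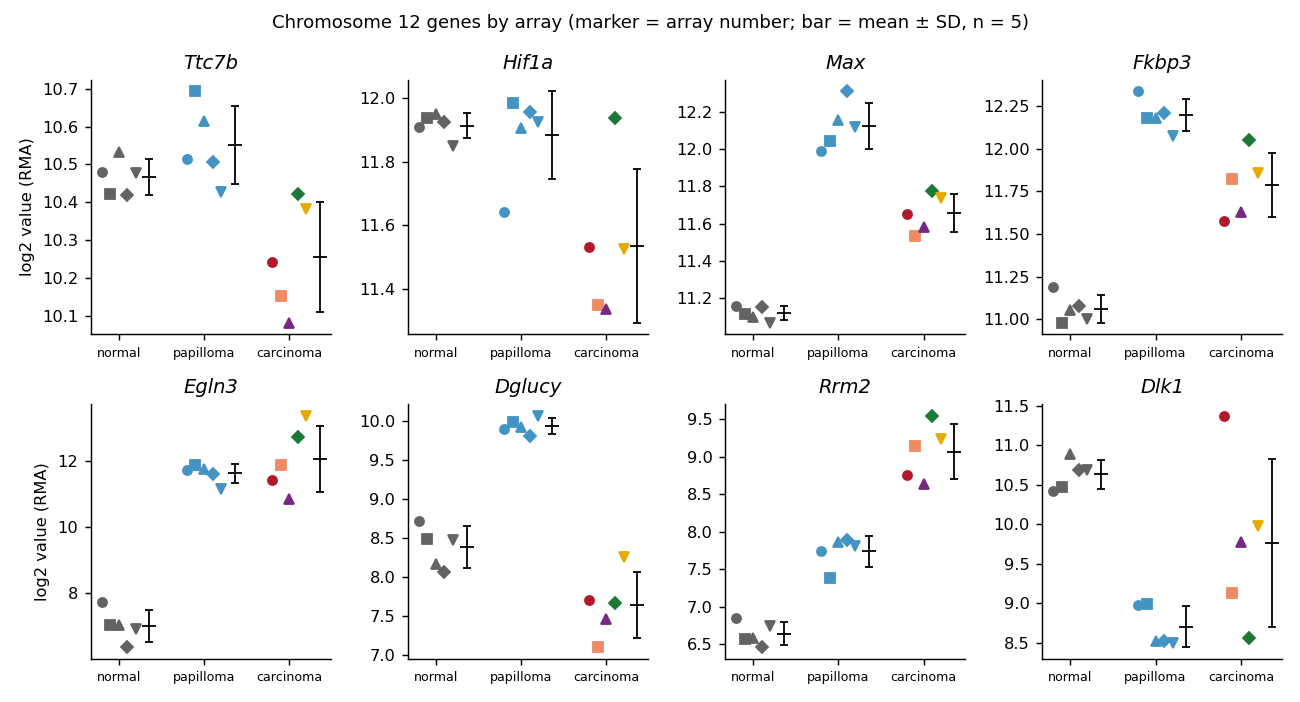
Log2 values of 8 chromosome 12 genes in each array, by group (x axis), with 1 symbol shape per array number and the mean ± SD (n = 5) at the right of each group. Ttc7b is lowest in carcinomas 1, 2 and 3, Hif1a is low in every carcinoma but carcinoma 4, Max and Fkbp3 are highest in papillomas, and the papilloma and carcinoma arrays of Dglucy lie on opposite sides of the normal mean.

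Over all genes tested, 17.0% rose and 16.3% fell in papillomas (24.6% and 22.5% of those past the filter), with a median difference of 0.01, and the counts of each role list stand against these shares. The lists were chosen with results of these data known, and nothing is called particular to any of them. Of 25 genes of growth, DNA replication and repair measured, 12 rose, 3 fell and 10 did not pass the test in papillomas, with a median difference of 0.25. Max encodes the partner that Myc needs to bind DNA. It stood at 11.16, 11.11, 11.10, 11.15 and 11.07 in normal, 11.99, 12.04, 12.16, 12.31 and 12.12 in papilloma, and 11.65, 11.53, 11.58, 11.78 and 11.74 in carcinoma arrays. Its 3 groups did not overlap. The rise in papillomas was 1.0 ± 0.07 (SE; 2.01-fold; limma, adjusted p = 2.28e-08), and carcinomas lay between the other groups, 0.54 ± 0.07 above normal and 0.47 ± 0.07 (SE) under papilloma.

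Mycn, a close relative of Myc, did not pass the filter on low values. Its papilloma arrays (6.39 to 6.78) lay just above the normal ones (6.27 to 6.38), a rise of 0.25 (limma, adjusted p = 0.0162), and its carcinoma arrays at 6.25 to 6.48 overlapped both.

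Rrm2, the small subunit of ribonucleotide reductase, which makes the building blocks of DNA, followed another order. Its values were 6.85, 6.57, 6.58, 6.46 and 6.74 in normal, 7.74, 7.38, 7.87, 7.89 and 7.81 in papilloma, and 8.76, 9.14, 8.64, 9.54 and 9.23 in carcinoma arrays. No groups overlapped, the papilloma rise was 1.10 ± 0.15 (SE; limma, adjusted p = 3.11e-05), and carcinomas stood 2.42 ± 0.15 above normal. With the mean of the probe sets of Rrm2 these differences were 0.63 (limma, adjusted p = 0.000189) and 1.53. Gen1, which cuts recombination intermediates, rose by 1.19 in papillomas (limma, adjusted p = 3.22e-05) and was 1.99 ± 0.17 (SE) higher in carcinomas, at 8.29, 8.46, 7.97, 8.91 and 7.84. Ncapg2, a condensin subunit, rose by 0.80 (limma, adjusted p = 0.000447) and was 1.29 ± 0.15 (SE) above normal in carcinomas. Lin52, part of the DREAM complex that represses cell cycle genes, fell by 0.78 in papillomas (limma, adjusted p = 0.000195) and was 1.23 lower than normal on the log2 scale in carcinomas, with 9.85, 9.63 and 9.65 in carcinomas 1 to 3 and 10.27 and 10.40 in carcinomas 4 and 5. A list of dividing-cell markers (8 of 9 measured) lay at 7.11 to 7.37 in normal, 8.84 to 9.33 in papilloma and 9.99 to 11.24 in carcinoma arrays, with 2 of the 8 under the array median in all normal arrays and 0 in tumours; its part in these differences was not tested.

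Oxygen and xenobiotic sensing held the member with the largest difference from normal in both tumour types. Egln3 encodes a prolyl hydroxylase that marks HIF proteins for destruction and is itself a HIF target. Normal arrays stood at 7.74, 7.06, 7.04, 6.38 and 6.93, papillomas at 11.71, 11.88, 11.73, 11.59 and 11.16, and carcinomas at 11.42, 11.86, 10.86, 12.71 and 13.36. Every tumour array was above every normal array, and carcinomas 4 and 5 were the highest. The papilloma rise was 4.59 ± 0.37 (SE; 24.0-fold; limma, adjusted p = 9.81e-08) and the carcinoma difference 5.01 ± 0.37 (SE).

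Hif1a encodes the oxygen-regulated HIF subunit. Its normal arrays lay between 11.85 and 11.95, its papillomas at 11.64, 11.99, 11.91, 11.96 and 11.92, and its carcinomas at 11.53, 11.35, 11.34, 11.94 and 11.52. Carcinoma 4 was at the normal level and the other 4 were below every normal and papilloma array. Papillomas did not differ past the threshold (-0.03 ± 0.10, SE; limma, adjusted p = 0.869). The carcinoma difference of -0.38 ± 0.10 (SE) turned to 0.04 when all probe sets of the gene were averaged, so its direction depends on the probe set. Ahr, the receptor for dioxin-like compounds, fell by 1.08 in papillomas (limma, adjusted p = 3.7e-05) and was 1.01 lower on the log2 scale in carcinomas. Dio2, which activates thyroid hormone, was 0.53 higher in papillomas (limma, adjusted p = 0.0631), and passed the test in 6 of 19 other settings, such as with only the groups compared (adjusted p = 0.0141). Of the 5 genes measured in the list, 1 rose, 1 fell and 3 did not pass the test in papillomas.

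The translation, folding and degradation list had 6 genes that rose, 2 that fell and 6 that did not pass the test among 14 in papillomas, with a median of 0.15. Fkbp3, a nuclear prolyl isomerase, had 10.98 to 11.19 in normal, 12.07 to 12.34 in papilloma, and 11.58, 11.82, 11.63, 12.05 and 11.86 in carcinoma arrays. As with Max, the groups did not overlap and carcinomas lay between, the papilloma rise being 1.13 ± 0.09 (SE; limma, adjusted p = 5.58e-08). Rps7, a protein of the small ribosomal subunit, rose by 1.07 (limma, adjusted p = 0.000268). Hspa2, a chaperone best known from sperm, fell by 1.41 (limma, adjusted p = 5.41e-08), and the F-box gene Fbxo33 fell by 1.42 in papillomas (limma, adjusted p = 4.59e-08) and was 1.78 lower in carcinomas on the log2 scale.

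Of 22 cilium and centrosome genes measured, 12 fell, 1 rose and 9 did not pass the test in papillomas (16.3% of all genes tested fell), with a median of -0.52. In carcinomas their median difference from normal was -0.81, as a description, beside -0.13 over the chromosome 12 genes tested and -0.02 over all genes tested. Ak7, an adenylate kinase of motile cilia, stood at 10.94, 10.93, 10.92, 11.26 and 10.88 in normal, 6.67, 6.85, 6.77, 6.48 and 6.61 in papilloma, and 6.92, 6.44, 7.23, 6.70 and 6.44 in carcinoma arrays. All tumour arrays lay far under the normal ones, with a fall of 4.31 ± 0.14 (SE; 19.8-fold; limma, adjusted p = 6.93e-12) in papillomas and a difference of -4.24 ± 0.14 (SE) in carcinomas. Dnah11, a dynein heavy chain of the ciliary outer arm, fell by 3.23 (limma, adjusted p = 2.26e-10), from 9.66 to 10.24 in normal to 6.50 to 6.86 in papilloma arrays. In carcinomas Dnah11 stood 3.07 below normal on the log2 scale. Lrrc9 and Efcab10 passed the filter through the normal arrays alone, so their differences are a description. They were 3.54 and 2.77 lower on the log2 scale in papillomas, and 3.64 and 2.91 lower in carcinomas. Both are among the 22 genes counted above, which were taken whether or not they passed the filter.

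The multiciliated cell list was lower in both tumour types, as the median of the cilium and centrosome genes was. That median was lower in carcinomas than in papillomas, whereas carcinomas 1, 3, 4 and 5 were above every papilloma array in the marker list. The marker list, 12 of 13 measured and none on chromosome 12, lay at 9.76 to 9.96 in normal, 7.38 to 7.54 in papilloma and 7.47 to 8.59 in carcinoma arrays. Of the 12, 2 were under the array median in all normal, 3 in all papilloma and 1 in all carcinoma arrays. In bulk tissue, fewer cells of a type and less RNA per cell cannot be told apart, and the part of the cell mixture in these falls was not tested.

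**Figure D5:**
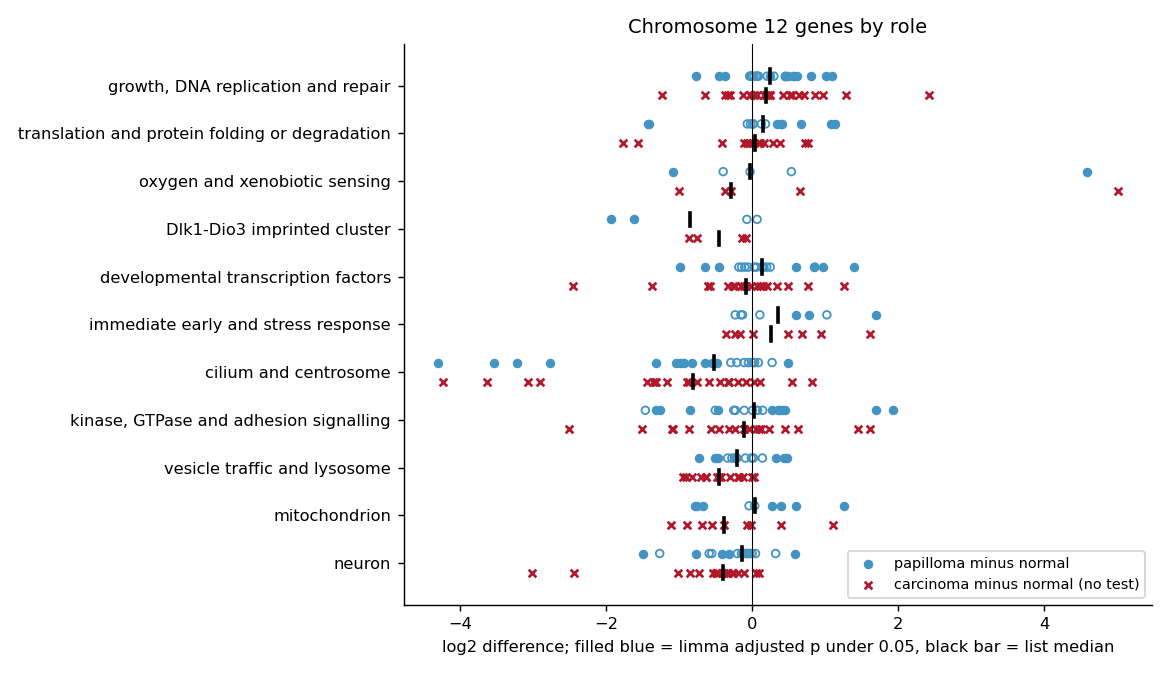
Log2 differences from normal (x axis) of the measured chromosome 12 genes in 11 role lists, papilloma in blue and carcinoma in red, with filled blue points past an adjusted p of 0.05 (limma), red crosses as a description with no test, and a black bar at each list median. The cilium and centrosome list reaches furthest to the left, and Egln3 at 4.59 and 5.01 lies furthest to the right.

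Several other members were lower than normal in both tumour types. Coch, which encodes the extracellular matrix protein cochlin, passed the filter through the normal arrays alone and, as a description, was 3.01 lower on the log2 scale in papillomas and in carcinomas. Ppp1r36, a regulatory subunit of protein phosphatase 1, fell by 3.07 (limma, adjusted p = 7.43e-08). Plek2, a pleckstrin, fell by 2.55 (limma, adjusted p = 3.7e-06) and Ttc9 by 2.38 (limma, adjusted p = 1.18e-05). Plek2 in carcinomas was spread over 8.26, 7.51, 8.84, 9.22 and 9.70, and Ttc9 over 9.52, 8.69, 9.59, 10.81 and 10.27, so in both genes carcinomas 4 and 5 were the highest and closest to normal. A list of meninges and fibroblast markers (8 of 8 measured) lay at 10.23 to 10.38 in normal, 8.59 to 9.01 in papilloma and 9.04 to 9.29 in carcinoma arrays, with 0, 1 and 1 of the 8 under the array median in all arrays of the group. A list of oligodendrocyte markers (7 of 8 measured) lay at 8.46 to 8.85 in normal, 7.46 to 8.24 in papilloma and 7.43 to 8.0 in carcinoma arrays, with 0, 0 and 1 under it. The part of either list in these differences was not tested.

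Signalling genes went both ways in papillomas, 7 rising, 4 falling and 9 not past the test among 20. Tgfb3, a transforming growth factor beta ligand, rose from 9.29 to 9.50 in normal to 11.13 to 11.50 in papilloma arrays (1.92 ± 0.17, SE; limma, adjusted p = 2.83e-07), and carcinomas stood at 11.02, 10.41, 10.60, 11.59 and 10.51, above every normal array. Rhob, a small GTPase, rose by 1.69 (limma, adjusted p = 2.62e-06) and had 10.07, 10.04, 9.80, 10.82 and 10.88 in carcinomas. Akt1, a kinase of the growth factor pathway, rose by 0.26 in papillomas (limma, adjusted p = 0.0196; 0.0601 without papillomas 2 and 4), and its carcinomas were at 11.03, 10.92, 10.97, 11.30 and 11.36. Gdf7, a ligand of the bone morphogenetic protein family, was at 11.59 to 11.84 in normal arrays, at 10.29, 10.69, 11.19, 8.0 and 11.23 in papillomas, and at 9.70, 7.03, 10.18, 11.19 and 8.09 in carcinomas. All tumour arrays were below the normal ones, yet their spread was wide and the papilloma difference of -1.47 did not pass the test (limma, adjusted p = 0.125; 0.0414 with only the groups compared and 0.041 with array weights). Itgb8, an integrin that activates latent transforming growth factor beta, had 12.42 to 12.61 in normal and 11.44, 9.32, 11.71, 11.76 and 10.82 in carcinoma arrays, and its papilloma difference of -0.51 did not pass either (limma, adjusted p = 0.337; 0.0433 with only the groups compared).

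Among developmental transcription factors and their partners, 4 of 19 rose, 3 fell and 12 did not pass the test in papillomas. Etv1, an ETS factor, fell by 0.99 in papillomas (limma, adjusted p = 0.00648; by 0.62 with the mean of its probe sets, adjusted p = 0.0419) and stood at 6.98, 7.06, 7.42, 6.60 and 6.67 in carcinomas against 9.30 to 9.52 in normal arrays. Foxn3, a forkhead repressor, rose by 1.39 (limma, adjusted p = 4.25e-06) and was 1.25 ± 0.16 (SE) above normal in carcinomas. Hdac9, a class II histone deacetylase, rose by 0.97 in papillomas (limma, adjusted p = 0.00222), and its carcinomas (6.86 to 7.88) overlapped the normal arrays (7.05 to 7.77). Osr1, a zinc finger factor, was spread in papillomas from 8.05 to 11.33 (0.86 ± 0.47, SE; limma, adjusted p = 0.194; 1.38 without papilloma 4, adjusted p = 0.00231, and 1.49 without papillomas 2 and 4, adjusted p = 0.00327) and lay at 9.20, 7.59, 7.73, 7.52 and 7.65 in carcinomas against 9.11 to 9.64 in normal arrays.

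Immediate early and stress genes numbered 8, of which 3 rose and 5 did not pass the test in papillomas. Trib2, a pseudokinase, rose by 0.77 (limma, adjusted p = 0.00149), and Klf11, a Krüppel-like factor, by 0.60 (limma, adjusted p = 0.00121). Fos, the AP-1 subunit made within minutes of a stimulus, had 6.43 to 6.83 in normal arrays, 10.02, 7.22, 6.98, 6.92 and 7.03 in papillomas and 7.38, 7.44, 6.81, 7.57 and 8.54 in carcinomas. Papilloma 1 stood far above the rest, and the difference of 1.02 ± 0.48 (SE) did not pass the test (limma, adjusted p = 0.126).

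Of 15 vesicle and lysosome genes, 3 rose, 4 fell and 8 did not pass the test in papillomas, with a median of -0.21. Their median difference from normal in carcinomas was -0.45, as a description. Npc2, which exports cholesterol from lysosomes, fell by 0.73 in papillomas (limma, adjusted p = 3.36e-06), and its carcinomas lay between 11.65 and 12.17 against 12.80 to 12.95 in normal arrays. Trappc6b, part of the TRAPP tethering complex, fell by 0.51 (limma, adjusted p = 0.00033) with carcinomas at 10.97, 10.76, 10.87, 11.33 and 11.13. Vti1b, a SNARE, fell by 0.47 (limma, adjusted p = 0.00164) with carcinomas at 9.70, 9.42, 9.62, 9.89 and 10.10. Atp6v1d, a subunit of the proton pump that acidifies lysosomes, was 0.21 lower in papillomas (limma, adjusted p = 0.0974; under the threshold in 3 of 19 other settings, such as 0.0156 with array weights) and stood at 11.78, 11.32, 11.61, 11.86 and 11.69 in carcinomas against 12.18 to 12.51 in normal arrays. In Trappc6b, Vti1b and Atp6v1d carcinoma 2 was the lowest array, and in Npc2, Trappc6b and Atp6v1d carcinoma 4 was the highest carcinoma.

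Mitochondrial genes were divided, with 4 of 9 rising, 3 falling and 2 not past the test in papillomas. Timm9, which carries proteins across the intermembrane space, rose by 1.26 (limma, adjusted p = 6.24e-08) and was 1.10 ± 0.10 (SE) above normal in carcinomas. Isca2, an iron-sulfur assembly factor, fell by 0.68 (limma, adjusted p = 2.95e-05), and Dhrs7, a dehydrogenase, by 0.76 (limma, adjusted p = 0.0112; 0.0513 without papillomas 2 and 4). Nubpl, which assembles respiratory complex I, did not differ past the threshold in papillomas (-0.05 ± 0.14, SE; limma, adjusted p = 0.856) and was lower in carcinomas, at 9.38, 8.74, 9.18, 9.73 and 9.50 against 9.91 to 10.10 in normal arrays.

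Neuronal genes on the chromosome were 18, of which 4 fell, 1 rose and 13 did not pass the test in papillomas. Rtn1, a reticulon of the neuronal endoplasmic reticulum, fell by 1.5 in papillomas (limma, adjusted p = 0.000636) and was at 7.46, 8.09, 7.37, 7.37 and 6.74 in carcinomas against 10.31 to 10.50 in normal arrays. Vsnl1, a calcium sensor, stood in papillomas at 6.72, 11.29, 7.37, 10.63 and 7.70, and Nrxn3, a synaptic neurexin, at 6.77, 9.87, 7.17, 8.68 and 7.09. Papillomas 2 and 4 were above every normal array in both genes, and the other papillomas below. In the neuron marker list papilloma 2 was above every normal array, papilloma 4 within the normal range and the other papillomas below it. The papilloma difference of neither gene passed the test (limma, adjusted p = 0.215 and 0.877). Without papillomas 2 and 4, Vsnl1 was lower by 2.74 and Nrxn3 by 1.03 on the log2 scale. Without papilloma 2 alone, Vsnl1 was lower by 1.90. Leaving out both arrays was added after seeing the data, and they were the highest papillomas in these genes. Taking them out lowers the papilloma mean by construction, so these values are a description without a test. Chga, a granin of secretory granules, was also highest among papillomas in papillomas 2 and 4, at 9.35 and 8.66. Its papilloma difference of -0.59 became -0.87 without papilloma 2 and -1.10 without both, again as a description. The part of neural tissue in these values was not tested.

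Of the imprinted Dlk1-Dio3 cluster, 4 listed genes were measured, and 2 fell, 0 rose and 2 did not pass the test in papillomas. Dlk1, a membrane protein expressed from the paternal allele, had 10.42, 10.48, 10.89, 10.69 and 10.69 in normal, 8.98, 8.99, 8.52, 8.52 and 8.50 in papilloma, and 11.37, 9.13, 9.77, 8.56 and 9.98 in carcinoma arrays. Papillomas were below every normal array (-1.93 ± 0.36, SE; limma, adjusted p = 0.000496), and the carcinomas spanned the range of both, with carcinoma 1 above every normal array. Rian, a noncoding RNA of the maternal allele, fell by 1.63 in papillomas (limma, adjusted p = 0.00676) to 6.19, 8.05, 6.47, 6.97 and 6.41, from 8.35 to 8.57 in normal arrays. Its carcinomas were at 8.20, 6.89, 7.50, 6.58 and 9.23, again wide. Meg3, the noncoding RNA that heads the maternal transcripts, lay between 6.74 and 7.01 in all arrays and did not differ past the threshold (-0.07 ± 0.06, SE; limma, adjusted p = 0.439).

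Taken over all 54 genes tested from Dlk1 to Dio3, a set chosen after its values were seen, 1 rose and 17 fell in papillomas, beside 17.0% and 16.3% over all genes tested; 43 of the 54 were microRNA genes, of which 8 passed the filter, 1 rose and 14 fell. The 4 microRNA genes with printed sequences were likewise chosen after their values were seen. Mir376a was at 5.10 to 5.79 in normal and 2.77 to 3.50 in papilloma arrays, a fall of 2.43 (limma, adjusted p = 3.07e-08), and Mir300 fell by 1.44 (limma, adjusted p = 3.79e-05). Both were dim and did not pass the filter; 13 of the 54 passed it. The members Mir665 and Mir341 fell by 0.56 (limma, adjusted p = 0.000155) and 0.28 (limma, adjusted p = 0.0147; 0.0525 without papillomas 2 and 4). In carcinomas Mir376a and Mir300 stood at 2.47 to 3.15 and 2.86 to 3.71. Neighbouring probes of this cluster can lie on shared primary transcripts, so these genes are not independent of each other.

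Some members were higher in both tumour types than in normal tissue. Bzw2, a translation regulator, had 9.03 to 9.61 in normal, 11.42 to 11.81 in papilloma, and 11.36, 11.29, 10.95, 11.52 and 11.69 in carcinoma arrays, a papilloma rise of 2.38 ± 0.13 (SE; limma, adjusted p = 1.64e-09). Cdca7l, a Myc-interacting nuclear protein, rose by 1.76 (limma, adjusted p = 6.49e-06), with carcinomas at 10.62, 10.39, 10.18, 11.58 and 10.84 against 8.65 to 9.29 in normal arrays. Slc26a4, the anion exchanger pendrin, rose by 2.83 (limma, adjusted p = 2.95e-06), from 5.54 to 6.40 in normal to 8.17 to 9.48 in papilloma arrays. Macc1, a regulator of the MET receptor gene, rose by 2.58 (limma, adjusted p = 9.81e-07). In Bzw2, Macc1, Rrm2, Gen1 and Cdca7l every carcinoma was above every normal array, and in Rrm2, Gen1, Cdca7l and Macc1 carcinoma 4 was the highest of the carcinomas.

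Pxdn, a peroxidase that crosslinks collagen IV, rose by 1.08 in papillomas (limma, adjusted p = 0.000139) and had 8.75, 8.91, 8.39, 9.35 and 8.74 in carcinomas against 6.73 to 6.99 in normal arrays. Prkar2b, a regulatory subunit of protein kinase A, rose by 0.77 (limma, adjusted p = 0.0081; 0.0657 without papillomas 2 and 4) and had 8.97, 9.23, 8.90, 9.93 and 9.62 in carcinomas. For both genes carcinoma 3 was the lowest carcinoma and carcinoma 4 the highest.

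Dglucy, which encodes a mitochondrial D-glutamate cyclase, was higher in papillomas and lower in carcinomas than in normal tissue. Normal arrays stood at 8.71, 8.49, 8.16, 8.06 and 8.48, papillomas at 9.89, 9.98, 9.92, 9.80 and 10.06, and carcinomas at 7.70, 7.10, 7.45, 7.67 and 8.26. Papillomas were above every normal array and rose by 1.55 ± 0.17 (SE; 2.93-fold; limma, adjusted p = 2.89e-06). Carcinomas were 0.74 lower than normal on the log2 scale, with carcinoma 5 within the normal range, and differed from papillomas by -2.29 ± 0.17 (SE). This difference was low in carcinoma 4 as well, where the chromosome median was near 0.

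At the edge of the filter, Coch, Lrrc9 and Efcab10 were above the array median in exactly 5 arrays, all of them normal, with means over the 15 arrays of 7.61, 7.14 and 7.04, the highest among members of that kind. Gpr22, Prima1 and Pomc, above it in 4 arrays, were the brightest genes just outside, with means of 6.83, 6.79 and 6.70. Of the members, 409 lay above the array median in all 15 arrays and 4 passed through the normal arrays alone, while 0 passed through papillomas or carcinomas alone; 246 chromosome 12 genes failed.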

How the data were processed

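The deposited values are log2 intensities of 41345 probe sets on 15 Affymetrix arrays, made by the authors with RMA in Affymetrix Expression Console, per the submitters' processing notes; versions and probe annotation build are not given in the sources used here. RMA forces arrays to a shared distribution, which can compress differences and hides changes in total RNA. Probe sets with several symbols (1814) were left out; 23521 had 1 symbol, 23325 of these matched RefSeq, and the set with the highest mean stood for each of 22180 genes. limma 3.58.1 (R 4.3.3; lmFit and eBayes, group as the only term, 12 residual degrees of freedom) was fitted on all genes and arrays, two-sided, with Benjamini-Hochberg adjustment over all genes at 0.05, and tested on simulated data. p-values measure the spread between arrays within groups, pooled over the 3 groups of 5 arrays. The spread of the carcinoma arrays thus enters the papilloma tests as well, except with only the groups compared. The number of arrays limits the precision, and whether an array holds RNA of more than 1 mouse is not stated in the labels. Medians and segments were computed in Python 3.11.15.

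Genes were named by a rule: up to 4 of each of 11 role lists by size of difference, 8 fixed names, the 8 largest rises and falls in papilloma and in carcinoma, 6 genes nearest the chromosome median, and 3 genes at each side of the filter, leaving out predicted genes and small RNAs. Of 177 list entries, 159 were measured on chromosome 12, 17 had no single-symbol probe set and 1 lay elsewhere. Sostdc1, a choroid plexus marker, is on chromosome 12. Members and lists were chosen with earlier results of these data known. Replicate correlations of 0.977 to 0.996 showed no duplicated arrays. The alternatives tried were centring, normalization, filters, probe set choice, variance model, array weights, the replicate block, the groups fitted, leaving out each array and, added after seeing the data, leaving out papillomas 2 and 4.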

Additional observations from a re-analysis of the deposited data

Results flagged for a closer look

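A single array stood apart from its group of 5 in 5 of 93 groups tested, the 3 groups of each of 30 named genes and of the chromosome 12 median, where chance alone gives about 1 in 20. For Hif1a, papilloma 1 was the lowest papilloma at 11.64, with the next at 11.91. For Fos, the same array was the highest papilloma at 10.02, with the next at 7.22. Among normal arrays, normal 4 was highest for the cilium kinase Ak7 at 11.26 (next 10.94), and normal 5 was lowest for Ppp1r36 at 10.46 (next 10.78) and for Efcab10 at 8.18 (next 9.06).

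Dglucy, the D-glutamate cyclase gene, differed between the tumour types: every papilloma lay above the normal mean and every carcinoma below it, with carcinoma minus papilloma at -2.29 on the log2 scale. This difference was not tested here, since the carcinoma arrays chose the chromosome.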

How the results depend on the processing

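The carcinoma median of chromosome 12 stayed below 0 under every setting run, at -0.23 without carcinoma 4 to -0.15 without carcinoma 3 when 1 array was left out, and at -0.23 to -0.12 under the other settings, smallest in size with no filter on low values. The papilloma median of -0.03 became -0.072 as a mean over members; the cause was not tested. With 4 or 12 segments in place of 8, carcinomas 1, 2 and 3 were below 0 in every segment. Counts past the threshold in papilloma minus normal (262) ran from 235 to 250 with 1 array left out and from 240 to 323 otherwise. The carcinoma minus papilloma counts moved most. Of 123 genes (17 higher, 106 lower), 59 (10 and 49) passed with only the groups compared and 71 (9 and 62) without papillomas 2 and 4, both fits with fewer arrays. Leaving out 1 array gave 81 to 168 in all, 13 to 19 higher and 67 to 151 lower, the lowest totals without papilloma 3. Same-numbered arrays correlated between -0.10 and 0.14 in their deviations, which gave no clear sign of pairing but cannot show that the numbers do not pair samples. The replicate block gave 257, 288 and 108 genes for papilloma minus normal, carcinoma minus normal and carcinoma minus papilloma. Across 70 named genes, 1296 of 1324 papilloma values kept their call, 8 lost it, 19 gained it and 1 reversed. Of 1254 carcinoma minus normal values, 1186 kept their side of the threshold, 47 lost it, 20 gained it and 1 reversed. All counts of the carcinoma contrasts are a description, since the carcinoma arrays chose the chromosome. Some of the genes were also named by their carcinoma difference. The reversals were Hif1a in carcinoma minus normal (0.035 with the mean of probe sets) and Gpr22 in papilloma minus normal (-0.43 without papillomas 2 and 4; limma, adjusted p = 0.0202); the cause was not tested. Pomc, Dhrs7, Akt1, Prkar2b and Mir341 lost their papilloma call in at least 1 setting. Signal over background limits dim genes, in which RMA values differ less.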
